A study of Homo sapiens and Mus musculus with 8 samples.

Results

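The genes described here encode the subunits of the respiratory chain, in 2 small cell lung cancer lines treated with decitabine. The inner mitochondrial membrane carries complexes I to IV, which pass electrons from NADH and succinate to oxygen, and complex V, the ATP synthase. Complexes I, III and IV pump protons, and complex V uses the proton gradient to make ATP. Most subunits are encoded in the nucleus and imported, while a small set at the core of complexes I, III, IV and V is encoded by mitochondrial DNA, which is transcribed as long RNAs inside the organelle. Complex II is wholly nuclear encoded and also carries out the succinate step of the citric acid cycle.

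Members were chosen by gene name alone, as the NDUFA, NDUFB, NDUFC, NDUFS and NDUFV genes, SDHA to SDHD, the UQCR genes, COX4 to COX8 forms, the ATP5 genes and the mitochondrial ND, CO, CYB and ATP genes, without pseudogenes. The human table holds 96 such genes of 20863, of which 83 are nuclear and 13 mitochondrial. The mouse table holds 90 of 16833, of which 78 are nuclear and 12 mitochondrial. All of them passed the filter on low values (10 or more normalized counts in 2 or more of a line's 4 libraries). COX8C of H146 and Cox7a1 of F1339 passed it only through their decitabine libraries. Placement by name puts NDUFA4, now counted as a complex IV subunit, with complex I, and takes in the ATP synthase inhibitor ATP5IF1, the supercomplex factor COX7A2L, the UQCRH copy UQCRHL and the coupling factor gene ATP5S.

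The libraries were made from total RNA of the human line NCI-H146 (H146) and the mouse line F1339. H146 received 0.5 µM decitabine or vehicle for 96 h and F1339 for 72 h, with 2 libraries in each arm and the same serum-containing RPMI medium for all. Decitabine is a deoxycytidine analog that is built into DNA and traps the DNA methyltransferase DNMT1, so that methylation is lost as cells divide. Each arm is labelled as duplicates, with neither separate cultures nor a batch named, so the spread between these libraries may be technical. The limma test used below also shares variance over genes of similar level. Its p-values and SE therefore do not measure a gene's own spread alone. In cultures measured in bulk, fewer cells of a kind and less RNA per cell cannot be told apart.

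Each library holds between 61364041 and 67892360 reads on listed genes. All 7 neuroendocrine markers listed for this cancer were detected in both lines. Single libraries stood apart in these genes. In H146, the mitochondrial members took 6.05% and 6.25% of the vehicle libraries, 7.51% of decitabine replicate 1 and 6.15% of decitabine replicate 2, and the nuclear members 1.01% of decitabine replicate 2 and 1.08% to 1.10% of the others. In F1339, the nuclear members took 1.21% of vehicle replicate 1, 1.5% of vehicle replicate 2 and 1.25% and 1.33% of the decitabine libraries. Calls of H146 members that end when 1 of these libraries is left out are marked beside the call.

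**Figure D1:**
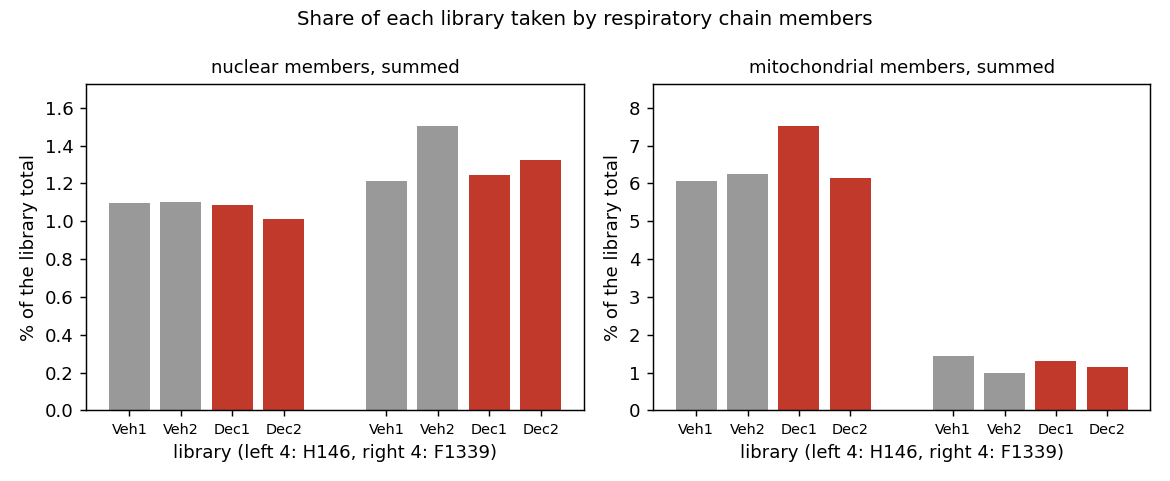
Bars show the summed normalized counts of the nuclear (left) and mitochondrially encoded (right) members as a percentage of each library's total, grey for vehicle and red for decitabine. Decitabine replicate 1 of H146 is the high bar for mitochondrial members at 7.51%, and vehicle replicate 2 of F1339 the high bar for nuclear members at 1.5%.

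In H146, nuclear members moved in both directions under decitabine, and those that fell include core subunits of complex I, SDHA of complex II, the large core proteins of complex III and the alpha subunit of complex V. By limma on log2(normalized count + 1), adjusted by Benjamini and Hochberg over all 20783 genes tested, 19 of the 83 nuclear members (22.9%) passed the threshold of 0.05, against 27.7% of all genes. The 6 members that rose make up 7.23%, where 15.4% of all genes rose. They include COX8C, which passed the filter only through its decitabine libraries. The 13 members that fell make up 15.7%, where 12.3% of all genes fell. The median log2 fold change of the nuclear members was -0.02, beside -0.01 for all genes. On the recovered reads, edgeR called 19 nuclear members, against 29.3% of all genes, and DESeq2 called 19, against 23.4%. The decitabine libraries lay wholly above the vehicle libraries for 17 members and wholly below for 30, where 31.5% and 30.6% of all genes did so. The number of calls depended on the libraries used: it was 13 without vehicle replicate 2, 12 without vehicle replicate 1, 9 without decitabine replicate 1, 6 without decitabine replicate 2, and 4 without a variance trend. The share of all genes called moved as well, to 24.3%, 26.7%, 12.1%, 12.8% and 10.4% in the same order. The direction of the whole set did too: 46 of 83 were below 0 with all libraries, 60 without decitabine replicate 1, 33 without decitabine replicate 2, and 40 after scaling to the same upper quartile.

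**Figure D2:**
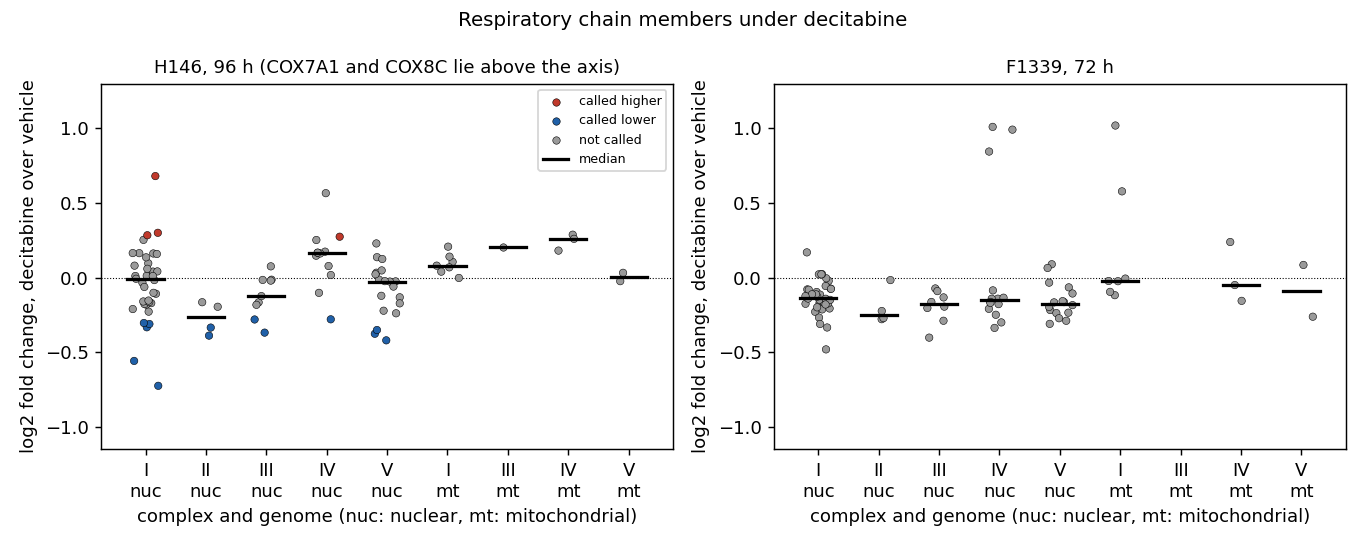
Each point is a member, placed by complex and genome, at its log2 fold change of decitabine over vehicle in H146 (left) and F1339 (right); black lines are medians over all members of the column. COX7A1 (2.87) and COX8C (4.95) lie above the H146 axis. Nuclear members of complexes II and III of H146 lie below 0 but for 1 of complex III, and in F1339 no point is coloured because no member was called.

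In complex I, the NADH dehydrogenase, 5 of 37 nuclear members were called lower and 3 higher in H146. That is 13.5% and 8.11%, beside 12.3% and 15.4% of all genes. NDUFA9, a supernumerary subunit (one outside the catalytic core) near the ubiquinone site, read 5937 and 5397 in vehicle and 3933 and 3755 under decitabine. Its log2 fold change was -0.56 ± 0.10 (SE; limma adjusted p = 0.000121). NDUFS1, the largest iron-sulfur subunit, read 7817 and 7232 in vehicle and 5858 and 6082 under decitabine, a log2 fold change of -0.33 ± 0.10 (limma adjusted p = 0.0131), and the call ended when either treated library (0.133 and 0.0787) or vehicle replicate 1 (0.100) was left out. NDUFS8 and NDUFS7, which carry the last iron-sulfur clusters before ubiquinone, also fell, by 0.31 and 0.30 on the log2 scale (limma adjusted p = 0.0309 and 0.0367). NDUFS8 lost the call without vehicle replicate 2 (adjusted p = 0.0900) or decitabine replicate 2 (0.418). For NDUFS7 the DESeq2 adjusted p was 0.0553, and it was 0.190 without vehicle replicate 1 and 0.431 without decitabine replicate 2.

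The 7 nuclear core subunits of complex I, a grouping made after the values were seen, all had both decitabine libraries below both vehicle libraries. Of all genes, 30.6% did so. Since the set was picked from these values, such counts only describe it. The median log2 fold change of the core subunits was -0.30, and 4 of the 7 were called lower, beside 12.3% of all genes. The other 30 nuclear members placed in complex I had a median of 0.02 and ran from -0.56 to 0.68, with 3 called higher and 1 lower. In F1339 the same sets had medians of -0.12 for 7 core and -0.14 for 29 other members, with no call. There 3 of the 7 core subunits separated lower, beside 18.0% of all genes. The most abundant nuclear member of complex I by normalized count, NDUFV1, which binds NADH and the flavin, read 18103 and 17508 in vehicle and 16823 and 15007 under decitabine and was not called (adjusted p = 0.274).

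Short stretches before the starts of 4 genes that fell, 3 of complex I and ATP5ME of the ATP synthase, are shown because they hold letters bound by known regulators of mitochondrial genes. They are from RefSeq promoters of GRCh38.p14, read 5′ to 3′ in gene orientation, with the match in capitals. NDUFS1 holds the reverse complement of the GABPA core 158 bases before its start (chr2:206159584-206159613, minus strand). NDUFS8 holds the YY1 letters 177 bases before (chr11:68030493-68030522, plus strand). NDUFS7 and ATP5ME hold the E-box read by MYC and related factors, 187 bases before the NDUFS7 start (chr19:1383708-1383737, plus strand) and 162 bases before the ATP5ME start (chr4:674421-674450, minus strand).
NDUFS1: aggctggggccACTTCCGGcggaactgcgg
NDUFS8: cccaaaccaacATGGCGGCcccctacaaac
NDUFS7: acccgcggccccCACGTGcgcactccgatg
ATP5ME: gcgcgtgcgcctCACGTGacgtcaccgccg

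Of the supernumerary subunits of complex I, 3 rose in H146. NDUFC2 (ENSG00000151366, chr11:78068304-78080219 in GENCODE 29 on GRCh38), a small membrane-arm subunit, read 3930 and 3507 in vehicle and 6144 and 5763 under decitabine, with no overlap. This was 1.60 times the vehicle mean, with a log2 fold change of 0.68 ± 0.10 (SE, n = 2 per arm; limma adjusted p = 1.12e-05). NDUFA8 and NDUFA2 rose by 0.30 and 0.28 on the log2 scale, with limma adjusted p of 0.0316 and 0.0452. Both lost the call without decitabine replicate 1 (adjusted p = 0.322 and 0.465) and without vehicle replicate 2 (0.227 and 0.134), NDUFA8 also without decitabine replicate 2 (0.0639) and NDUFA2 without vehicle replicate 1 (0.0637). NDUFA2 shares exonic bases on the opposite strand with IK, which was also called higher (log2 fold change 0.28), and since the counting is not stated to use strand, their reads cannot be told apart there.

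In complex II, succinate dehydrogenase, both decitabine libraries lay below both vehicle libraries for all 4 subunits, and 2 were called lower. Of all genes, 30.6% separated in this way and 12.3% were called lower. SDHA, the flavin subunit that oxidizes succinate, read 14962 and 13871 in vehicle and 11113 and 10892 under decitabine, a log2 fold change of -0.39 ± 0.10 (SE; limma adjusted p = 0.00541). SDHC, a membrane anchor, read 7236 and 6406 in vehicle and 5391 and 5403 under decitabine, a log2 fold change of -0.33 ± 0.10 (limma adjusted p = 0.0138). The iron-sulfur subunit SDHB (log2 fold change -0.20, adjusted p = 0.162) and the anchor SDHD (-0.17, adjusted p = 0.24) were not called. SDHA lost the call without decitabine replicate 1 (adjusted p = 0.0697) or 2 (0.0835), and SDHC when 1 of these or vehicle replicate 1 was left out (0.109 to 0.150). SDHA has unprocessed copies in the genome, of which SDHAP1 and SDHAP3 are listed in the human table, so its reads may be split.

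Complex III, which passes electrons from ubiquinol to cytochrome c, had 8 of 9 nuclear members below 0, with a median log2 fold change of -0.12. Of the 9, 2 were called lower (22.2%), beside 12.3% of all genes. The 2 called are the large core proteins of the matrix side. UQCRC1 read 13352 and 12488 in vehicle and 10294 and 9713 under decitabine (log2 fold change -0.37 ± 0.10, limma adjusted p = 0.00778). UQCRC2 read 9729 and 9005 in vehicle and 7668 and 7742 under decitabine (-0.28 ± 0.10, limma adjusted p = 0.0364). Both lost the call when 1 treated library or vehicle replicate 1 was left out, with adjusted p of 0.0572 to 0.117 for UQCRC1 and 0.155 to 0.203 for UQCRC2. The Rieske iron-sulfur subunit UQCRFS1 was at -0.17 and was not called.

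Complex V had 3 of 19 nuclear members lower (15.8%) and none higher in limma, beside 12.3% and 15.4% of all genes. ATP5F1A, the alpha subunit of the catalytic head, read 70294 and 64239 in vehicle and 50795 and 49630 under decitabine. That is 0.746 times the vehicle mean, with a log2 fold change of -0.42 ± 0.13 (SE; limma adjusted p = 0.0162), and the call ended when either treated library (0.156 and 0.177) or vehicle replicate 1 (0.0820) was left out. The catalytic beta subunit ATP5F1B, the most abundant nuclear member by normalized count, read 76629 and 68191 in vehicle and 61019 and 62943 under decitabine. Its libraries did not overlap either, but the difference was not called (log2 fold change -0.22 ± 0.13, adjusted p = 0.234). ATP5MC1, a gene for the proton-carrying ring, and ATP5ME, a membrane subunit, fell by 0.38 and 0.35 on the log2 scale (limma adjusted p = 0.0113 and 0.0148). Both lost the call without decitabine replicate 2 (adjusted p = 0.283 and 0.266), ATP5MC1 also without vehicle replicate 1 (0.0663) and ATP5ME without vehicle replicate 2 (0.140). ATP5ME shares 579 exonic bases with MYL5 on the opposite strand, which read 278 to 514 normalized counts.

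**Figure D3:**
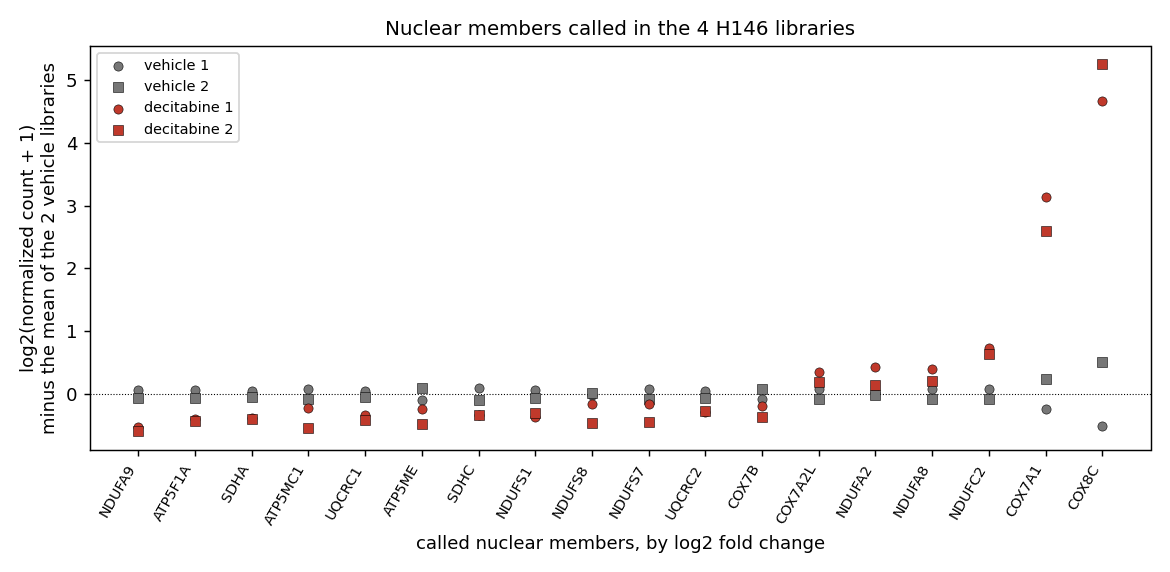
The figure shows 18 nuclear members called in H146, ordered by log2 fold change, where each symbol is a library, placed at its log2(normalized count + 1) minus the mean of the vehicle libraries. NDUFA9 is the lowest shown at -0.56 and COX8C the highest at 4.95; most other called members lie within 0.5 of 0.

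Complex IV, cytochrome c oxidase, had 12 of its 14 nuclear members above 0 in H146, with a median log2 fold change of 0.17. Of the 14, 3 were called higher (21.4%) and 1 lower (7.14%), beside 15.4% and 12.3% of all genes. The treated libraries lay wholly above vehicle for 8 and wholly below for 1, beside 31.5% and 30.6% of all genes. Their summed counts were 143747 and 141414 in vehicle, 167646 in decitabine replicate 1 and 143784 in decitabine replicate 2. The higher sum thus rested on decitabine replicate 1. Differences between complexes were not tested. The 2 largest rises were in subunit forms that most tissues do not use. COX7A1 (ENSG00000161281, chr19:36150922-36152869 in GENCODE 29 on GRCh38), the form of subunit 7A used in heart and skeletal muscle, read 44.1 and 61.6 normalized counts in vehicle and 466 and 322 under decitabine. Both treated libraries lay far above both vehicle libraries, and the mean rose 7.45-fold (log2 fold change 2.87 ± 0.23, limma adjusted p = 4.19e-10). The muscle markers listed were all detected in H146, summing to 3839 and 3878 in vehicle and 6691 and 5729 under decitabine, and CKM (log2 fold change 2.67) and ACTA1 (2.55) were called higher. Their part in the COX7A1 result was not tested.

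COX8C (ENSG00000187581, chr14:93347191-93348356 in GENCODE 29 on GRCh38), a form of subunit 8 known from testis, went from 0 and 1 recovered reads in vehicle to 35 and 55 under decitabine. With 1 vehicle read the ratio is 87.2, with a 95% counting interval of 15.3 to 3481, and the limma call had an adjusted p of 2.35e-06. COX8C met the low-value filter only through the treated libraries, so only a rise could be seen for it. Its ubiquitous counterpart COX8A read 18938 and 18216 normalized counts in vehicle and 23691 and 20651 under decitabine and was not called (log2 fold change 0.25 ± 0.11, adjusted p = 0.0936; DESeq2 adjusted p = 0.0473). Per 1000 exonic bases, COX8C reached 65.7 and 99.7 normalized counts under decitabine, and COX8A was at 46727 and 40731 in the same libraries. Stretches of 200 bases before both genes are printed to set their CG sites side by side, since CG is the sequence DNMT1 methylates. Both run from 250 to 51 bases before the RefSeq start in GRCh38.p14 and have CG in capitals. The COX8C stretch (chr14:93346932-93347131, plus strand) holds 3 CG sites and the COX8A stretch (chr11:63974370-63974569, plus strand) 12; methylation was not measured here.
COX8C: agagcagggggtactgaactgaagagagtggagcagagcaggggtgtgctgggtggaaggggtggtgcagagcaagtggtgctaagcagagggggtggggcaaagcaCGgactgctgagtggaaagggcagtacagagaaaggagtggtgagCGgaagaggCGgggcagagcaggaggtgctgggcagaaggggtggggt
COX8A: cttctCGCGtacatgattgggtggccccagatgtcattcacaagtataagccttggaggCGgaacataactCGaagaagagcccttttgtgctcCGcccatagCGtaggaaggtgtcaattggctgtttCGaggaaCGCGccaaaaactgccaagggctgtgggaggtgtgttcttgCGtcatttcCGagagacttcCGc

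The other tissue-restricted form in the human table, COX6B2 of testis, read 8.02 and 12.3 in vehicle and 15.0 and 15.5 under decitabine and was not called (adjusted p = 0.461). COX7A2L rose by 0.27 on the log2 scale with an adjusted p of 0.0497 in limma, at the threshold, and lost the call without decitabine replicate 1 (adjusted p = 0.355), decitabine replicate 2 (0.0979) or vehicle replicate 2 (0.308). COX7B was the 1 complex IV member that fell, by 0.28 on the log2 scale (limma adjusted p = 0.0435), and 8 of 15 alternatives ended that call, with adjusted p between 0.0261 and 0.353 over all of them. COX6A1, the most abundant nuclear subunit of the complex by normalized count, read 27107 and 25409 in vehicle and 31192 and 24587 under decitabine, so the arms overlapped. The calls of COX7A1 and NDUFC2 held under every alternative. COX8C was removed by the filter of at least 50 and kept its call under the others, where only a rise could be called.

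None of the 13 mitochondrially encoded members was called in H146 by limma or edgeR, and 0 had an unadjusted p below 0.05. DESeq2 called 1, the cytochrome oxidase subunit MT-CO2 (adjusted p = 0.0405). Fitted log2 fold changes were above 0 for 11 of 13 with a median of 0.11, and ran from -0.02 to 0.29. MT-CO2 read 286835 and 282388 in vehicle and 391349 and 308332 under decitabine, so both treated libraries were above both vehicle libraries but decitabine replicate 1 was much higher than replicate 2. MT-CO1, the catalytic subunit and the most abundant member, read 1122057 and 1056350 in vehicle and 1389356 and 1096330 under decitabine. MT-ATP6, the proton channel subunit of the ATP synthase, read 599704 and 589141 in vehicle and 683284 and 540559 under decitabine, so that the vehicle libraries lay between the treated ones. Decitabine replicate 2 was higher than replicate 1 for 0 of 13 mitochondrial members and 7 of 83 nuclear members, and for 48.1% of all genes. Without decitabine replicate 1, 4 of 13 mitochondrial members were above 0 and the median log2 fold change was -0.10, and without decitabine replicate 2 all 13 were above 0, with a median of 0.32.

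Summed over the 13 members, the decitabine to vehicle ratio was 0.15 ± 0.17 on the log2 scale (SD, n = 2 per arm) with both treated libraries and -0.03 without decitabine replicate 1. The nuclear members summed to -0.07 ± 0.08 on the same scale. Both differences are smaller than the spread between libraries, and with 2 libraries per arm an exact permutation test cannot go below 0.333. Transcript level per 1000 exonic bases was higher for mitochondrial members, at 125399 to 872867 normalized counts with a median of 322132 in vehicle, than for nuclear members, whose median was 2119 and whose highest was COX8A at 36641. MT-ATP8 and MT-ATP6 share 46 bases and MT-ND4L and MT-ND4 share 7, so reads there belong to both. MTATP6P1, the highest of 15 listed nuclear copies of mitochondrial genes, read 19881 to 26356.

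**Figure D4:**
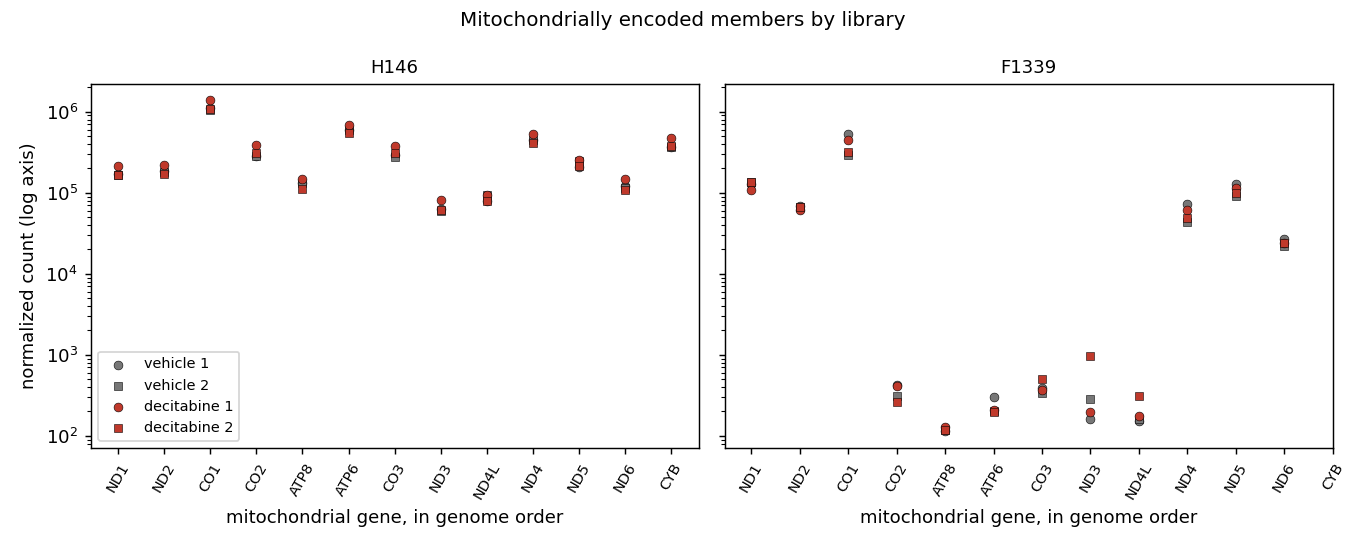
Points are the normalized counts (log axis) of the mitochondrially encoded members in each library, in genome order, for H146 (left) and F1339 (right). Decitabine replicate 1 is the top point for all 13 members in H146, and in F1339 the 6 genes from CO2 to ND4L lie between 113 and 974 while the others lie at 21816 or more.

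In F1339 the 6 adjacent genes mt-Co2, mt-Atp8, mt-Atp6, mt-Co3, mt-Nd3 and mt-Nd4l were listed at 113 to 974 normalized counts, and the 6 other mitochondrial members at 21816 to 528126. The 6 genes took 0.162% to 0.337% of the mitochondrial members' counts in F1339, where the same genes took 35.4% to 35.8% in H146. As background, the mouse nuclear genome carries a near-identical copy of this stretch, and reads that match more than 1 place can be left uncounted; whether that happened here was not tested, and the values of these 6 genes are uncertain. The name rule does not reach mt-Cytb, the mouse cytochrome b gene, which read 247591 and 144802 in vehicle and 186894 and 131737 under decitabine (limma adjusted p = 0.935).

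Decitabine in F1339 gave no call among 78 nuclear and 12 mitochondrial members, as in the whole table (0.00% of 16680 genes by limma and 0.00% by edgeR). DESeq2 called 0.641% of all genes and no member. At an unadjusted p below 0.05 limma counted 932 genes, 2 nuclear members, Cox6a2 and Ndufs4, and 0 mitochondrial members. Fitted log2 fold changes were below 0 for 69 of the 78 nuclear members with a median of -0.16, beside -0.01 for all genes. The decitabine libraries lay wholly below the vehicle libraries for 22 nuclear members and wholly above for 3, where 18.0% and 17.9% of all genes did so. This direction rested on vehicle replicate 2. Its nuclear members were higher than those of vehicle replicate 1 in 68 of 78 cases, with a median log2 ratio of 0.37. Decitabine replicate 1 against vehicle replicate 1 was higher for 35 of 78, with a median of -0.01, and decitabine replicate 2 against vehicle replicate 2 for 6 of 78, with a median of -0.29. Without vehicle replicate 2, 33 of 78 were below 0, with a median of 0.03. Of the 12 mitochondrial members, 8 were below 0, and 4 after rescaling to the same total. Among nuclear members, that rescaling left 56 of 78 below 0, with a median of -0.07 where that of all genes moved to 0.09.

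Vehicle replicate 2 was the highest library for several abundant members of F1339. Atp5b, the beta subunit of the ATP synthase, read 114704 and 140106 in vehicle and 109890 and 111398 under decitabine. Cox4i1, a ubiquitous complex IV subunit, read 33014 and 41360 in vehicle and 32289 and 34747 under decitabine. Sdhb read 22184 and 25890 in vehicle and 20841 and 20198 under decitabine, and Sdhd 7659 and 11737 against 7575 and 8061. In these 4 genes vehicle replicate 2 was the highest library, but in Sdha, at 16835 and 15765 in vehicle and 16076 and 16133 under decitabine, it was the lowest. Ndufs4, an accessory subunit of complex I, read 3793 and 4949 in vehicle and 3338 and 2885 under decitabine, the lowest log2 fold change of a nuclear member at -0.48 ± 0.18 (SE; limma adjusted p = 0.89).

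The 3 nuclear members with treated libraries wholly above vehicle in F1339 were the muscle and testis forms of complex IV. Cox6a2, the heart and skeletal muscle form of subunit 6A, read 92.9 and 60.5 in vehicle and 153 and 147 under decitabine (log2 fold change 0.99 ± 0.37, limma adjusted p = 0.89). Cox6b2 read 42.1 and 18.5 in vehicle and 52.1 and 63.3 under decitabine (1.01 ± 0.53, adjusted p = 0.902). Cox7a1 read 9.72 and 6.83 in vehicle and 11.8 and 20.2 under decitabine, from 16 and 33 reads in all. It met the low-value filter only through the treated libraries, so its rise was favoured in advance. The ratio was 1.95 with a 95% counting interval of 1.05 to 3.80, which is therefore no support for a rise. None was called. Of the muscle markers, Acta1 read 45.9 to 75.8 and Myh7 60.5 to 363 over the 4 libraries, neither was called, and their part was not tested.

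Between the lines, 89 members were matched by symbol or older symbol, 77 of them nuclear, and the difference between lines was not tested because species, times and tables differ. None of the 89 had arms that separated in opposite directions, where 8.37% of 11845 genes matched by symbol did. In 14 the treated libraries lay wholly below vehicle in both lines, as in 8.40% of the matched genes, among them the catalytic head genes ATP5F1A, ATP5F1B and ATP5F1C, NDUFS3, NDUFV1, SDHB, SDHC, UQCRC2 and UQCRFS1. On the log2 scale, SDHC was at -0.33 in H146 and -0.27 in F1339. On the F1339 side the direction of nuclear members rested on vehicle replicate 2, as above. COX7A1 (2.87 and 0.84) and COX6B2 (0.57 and 1.01) were the 2 that lay wholly above vehicle in both, as in 6.92% of the matched genes. COX6B2 was called in neither line, and its counting interval in H146 (ratio 0.829 to 2.78) includes no change. Cox7a1 of F1339 met the low-value filter only through the treated libraries.

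The F1339 libraries numbered 2 differed from those numbered 1 in these genes, for nuclear members mostly within the vehicle arm. Vehicle replicate 2 was above vehicle replicate 1 for 68 of 78 nuclear members, with a median log2 ratio of 0.37. Decitabine replicate 2 was above decitabine replicate 1 for 50 of 78, with a median of 0.09. The contrast below averages these 2 differences. The labels give the numbers no meaning. With treatment kept as a term, limma called 18 of 78 nuclear members (23.1%) higher and 0 lower in the libraries numbered 2, where 10.4% of all genes were higher and 11.4% lower, 21.9% in either direction. The median log2 fold change of the nuclear members was 0.22, beside 0.01 for all genes, and 65 of 78 were above 0. By edgeR 20 nuclear members were called, against 22.6% of all genes, and by DESeq2 13, against 15.3%. The libraries numbered 2 lay wholly above those numbered 1 for 41 nuclear members and wholly below for 4, where 26.2% and 26.4% of all genes did so. No member was called without a variance trend or with number as the only term, settings in which 0 and 194 of 16680 genes were called at all. Fits with a library left out also dropped the treatment term, so they cannot show dependence on a single library.

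**Figure D5:**
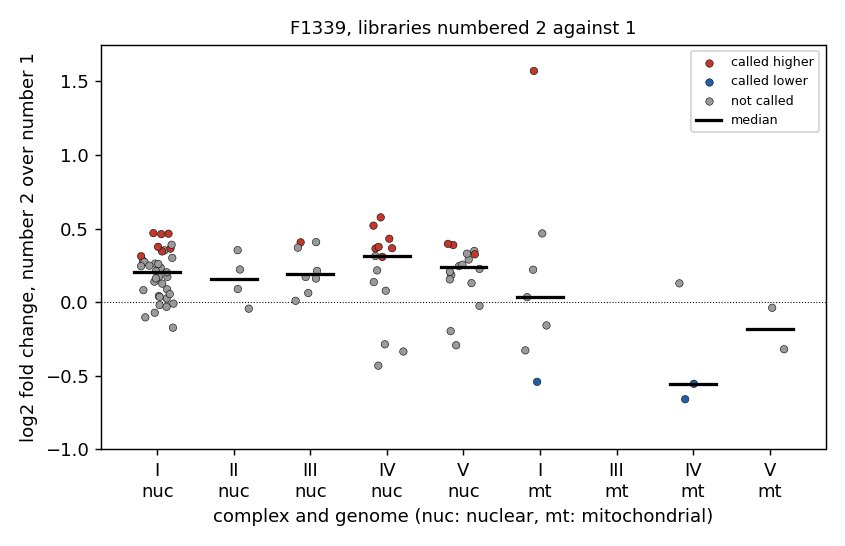
Each point is an F1339 member at its log2 fold change of libraries numbered 2 over those numbered 1, by complex and genome; black lines are medians. Complex IV has 7 called points and the highest nuclear median at 0.31, and mt-Nd3 is the single high mitochondrial point at 1.57.

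Complex IV held 7 of the 18 calls. Cox5a, a nuclear subunit on the matrix side of the enzyme, read 5341 and 4930 in the libraries numbered 1 and 9284 and 6302 in those numbered 2 (log2 fold change 0.58 ± 0.12, limma adjusted p = 0.00564). Cox7b read 4349 and 4550 against 7541 and 5391 (0.52 ± 0.13, adjusted p = 0.0149 in limma). Ndufs6 (0.47), Ndufb8 (0.46) and Ndufb6 (0.46) were the largest rises of the 7 calls in complex I, Uqcr10 (0.41) the 1 call in complex III, and Atp5k (0.40), Atp5g1 (0.39) and Atp5o (0.32) those of complex V. In Cox5a and Cox7b vehicle replicate 2 was again the highest library. Complex II had no call, with log2 fold changes of -0.04 for Sdha and 0.35 for Sdhd.

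Of the 12 mitochondrial members, 3 were called lower and 1 higher in this contrast. mt-Co1 read 528126 and 452482 in the libraries numbered 1 and 296358 and 322711 in those numbered 2, a log2 fold change of -0.66 ± 0.19 (SE; limma adjusted p = 0.0297). mt-Nd4 read 73010 and 62160 against 43405 and 49305 (-0.54 ± 0.13, limma adjusted p = 0.0144). mt-Co2 (-0.56) was also called lower and mt-Nd3 (1.57) higher, both among the genes with uncertain values; mt-Nd3 read 161 and 195 against 286 and 974, so decitabine replicate 2 stood alone. mt-Nd1 (0.22, adjusted p = 0.304) and mt-Nd5 (-0.33, adjusted p = 0.123) were not called. mt-Cytb, outside the name rule, had a log2 fold change of -0.64 with a limma adjusted p of 0.0133. Neuroendocrine markers also differed by number: their summed level was 265776 and 197818 in the libraries numbered 1 and 159139 and 133607 in those numbered 2, and 3 of 7 were called lower, among them Dll3 and Insm1. Their part in the result was not tested.

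Genes that build, maintain or feed the chain, in lists whose difference from the subunits was not tested, mostly fell where they were called in H146. Of 27 listed genes of mitochondrial DNA upkeep and transcription, 12 were called lower and 0 higher, with a median log2 fold change of -0.28, where 12.3% of all genes were lower. The largest falls were in PNPT1, an RNA-degrading enzyme of mitochondria (-0.81), TWNK, the mitochondrial DNA helicase (-0.52), and FASTKD2, an RNA-binding protein (-0.51). Of 56 assembly factors, 17 were lower and 2 higher, with a median of -0.20. UQCC1, a complex III assembly factor, read 4274 and 4068 in vehicle and 2340 and 2242 under decitabine (-0.86 ± 0.10, limma adjusted p = 2.71e-07). NDUFAF1, which assembles complex I, and SDHAF4, which acts on SDHA, followed at -0.72 and -0.69.

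Beside the 15.4% of all genes that rose and the 12.3% that fell, 9 of 18 citric acid cycle genes were lower and 0 higher with a median of -0.27, led by the succinyl-CoA ligase subunits SUCLG2 (-0.61) and SUCLA2 (-0.52) and by pyruvate carboxylase, PC (-0.59). Of 13 regulators, 5 were lower, MYC, PPRC1, ESRRA, GABPA and NRF1, and 1 higher, ESRRG. MYC read 11462 and 9566 in vehicle and 6119 and 5958 under decitabine (-0.79 ± 0.10, limma adjusted p = 2.18e-06), PPRC1, a coactivator of the PGC-1 family, was at -0.63, and ESRRA, a nuclear receptor that acts on respiratory genes, at -0.54. Glycolysis genes, 20 in all, had 3 lower and 1 higher, with LDHA at -0.47, GPI at -0.41 and HK1, the hexokinase that docks on mitochondria, at 0.72. Among 4 chain genes outside the name rule, CYC1 (-0.32) and NDUFAB1 (-0.31) fell and NDUFA4L2, a paralog of NDUFA4, rose (0.60). Over these lists 53 genes were called with all libraries, 24 without decitabine replicate 1, 19 without decitabine replicate 2 and 6 without a variance trend, where all genes went from 27.7% to 12.1%, 12.8% and 10.4%. None was called in F1339, where the median of the citric acid cycle list was -0.11 and that of the assembly list -0.13.

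Promoter sequences of 300 bases, 250 before to 50 after the start, were found in RefSeq (GRCh38.p14) for 68 of the 83 human nuclear members and searched on both strands for exact letters. No motif searched holds another. The NRF1 palindrome, GCGCA followed directly by TGCGC, was in 5.88% of the members' promoters and 1.36% of all 27305 promoters, the GABPA letters CCGGAAGT in 14.7% and 4.44%, the YY1 letters ATGGCGGC in 17.6% and 3.21%, and the E-box CACGTG in 10.3% and 7.43%. By response in H146, the YY1 letters were in 4 of the 11 promoters of members called lower and in 8 of the 53 of members not called. The GABPA letters were in 1 of those 11 and 9 of those 53, the E-box in 3 and 4, and the NRF1 palindrome in 0 and 3. Of the 4 promoters of members called higher, 1 held the NRF1 palindrome and 0 held the other motifs. These counts are small and describe letters, not bound sites. The median number of CG sites was 23 in members' promoters and 14 in all promoters, while COX8C had 10 and COX8A 18.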

How the data were processed

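RNA of 8 libraries was sequenced and processed by a vendor for the authors, and the groups follow the labels. The members and gene lists were chosen with earlier results of these data known. Per gene and library, the deposited signal is a count scaled by the authors with a single size factor for each library, as the values show: 100% are whole multiples of the worth of 1 read (0.960 to 1.08) within 0.001 read. Per the submitters' processing notes, the tools were featureCounts (Subread 1.5.2), STAR 2.5.2b, Trimmomatic 0.36 and DESeq2, and the build GRCh38, listed also for mouse. Not given in the sources used here are strandedness, annotation and mouse build. The authors' deposited tables also hold a log2 fold change and p-values; by the authors' adjusted p-value, 7 nuclear members of H146 were higher and 12 lower, 1 mitochondrial member was higher, and no F1339 member changed. The sign of the authors' deposited log2 value is that of vehicle over decitabine in H146.

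Per line, 20783 and 16680 genes with 10 or more normalized counts in 2 or more libraries were tested, with limma 3.58.1 under R 4.3.3 on log2(value + 1), eBayes with a variance trend, Benjamini-Hochberg adjustment and a threshold of 0.05. Folds are ratios of means, and fitted log2 fold changes understate low genes. Counting intervals are exact binomial at 95% and cover counting error only. Alternatives were other pseudocounts (0.5, 5) and filters (none, 50), 3 rescalings, no variance trend, the replicate block, count tests on recovered reads (DESeq2 1.42.0, edgeR 4.0.16), and each library left out, taking a lone library to vary as the remaining arm does. On those reads, edgeR called 6083 and DESeq2 4857 genes for decitabine in H146, 0 and 107 in F1339, and 3778 and 2554 between F1339 numbers. Simulated data served to test the procedure. Named are all mitochondrial members, the most abundant nuclear member per complex, up to 3 called rises and falls per complex, line and contrast, tissue-restricted forms, SDHA to SDHD and up to 3 called genes per list and line; others were chosen after their values were seen. Human positions are from GENCODE release 29 and RefSeq. Left out were 4 human pseudogenes and 1 mouse pseudogene that match the names. Some genes are not reported here.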

Additional observations from a re-analysis of the deposited data

How the results depend on the processing

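With 2 libraries per arm, much of what was called in H146 needed all 4 libraries. H146 nuclear calls, 19 in all, kept 17 to 19 of those genes under other pseudocounts, filters, scalings and tools, and under the replicate block, which gave 17 calls. They numbered 4 without a variance trend and 6 to 13 with a library left out. The H146 mitochondrial count was 1 by DESeq2 and 0 in all leave-outs. The other lists gave 6 without a variance trend and 19 to 43 with a library left out. In F1339 the block gave 1 nuclear member, Cox6a2, with 1325 genes called in the whole table, 0 mitochondrial members and 4 list genes; leave-outs gave 0 in each. Same-numbered libraries deviated together in F1339 (correlation 0.685 over genes, 2 pairs) and not in H146 (-0.0336), and the labels do not say that the numbers pair libraries. In the number contrast, nuclear and mitochondrial calls fell to 0 without a variance trend and with number as the only term. The leave-outs of that contrast also dropped the treatment term, so they cannot show dependence on a single library. Summed members, as log2 ratios of decitabine to vehicle, ranged over leave-outs from -0.153 to 0.00326 (H146 nuclear), -0.0339 to 0.311 (H146 mitochondrial), -0.319 to -0.0096 (F1339 nuclear) and -0.325 to 0.214 (F1339 mitochondrial). No named value that was called changed sign. Of values not called, 10 of 19 in H146, 12 of 23 in F1339 and 10 of 18 in the number contrast changed sign in some alternative and have no direction. The cause of these shifts was not tested. Counting error was computed for COX8C, COX6B2 and Cox7a1, which have few reads; it also bears on other low members such as Cox6b2.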

Other observations

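Glycolysis genes of F1339 split by library number in the same direction as nuclear respiratory chain members. In limma with treatment as a term, 9 of 18 were higher and 0 lower in the libraries numbered 2, with a median log2 fold change of 0.46, where 10.4% of all genes were higher and 11.4% lower. Over all 16680 genes, calls in this contrast fell from 3651 to 0 without a variance trend and to 194 with number as the only term. Hk2, a hexokinase, read 92.9 and 162 normalized counts in the libraries numbered 1 and 1309 and 584 in those numbered 2. Pfkm, a phosphofructokinase, read 90.7 and 151 against 643 and 764, and Ldhb, a lactate dehydrogenase subunit, 154 and 220 against 720 and 761. The summed list read 551650 and 527895 in the libraries numbered 1 and 871641 and 593576 in those numbered 2, so vehicle replicate 2 was the high library here too. Of 26 genes of mitochondrial DNA upkeep, 0 were higher and 1 was lower in this contrast. These genes were named after their values were seen.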
